A study of Mus musculus with 8 samples.

Results

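The histone variants and the oocyte linker histone of fully grown mouse oocytes were followed at the mRNA level, as 10 genes of the 46078 in the count table. They were taken by gene name: the linker histones H1foo (the older symbol of H1f8), H1f0 and H1fx, the H2A variants H2afx, H2afy, H2afz and H2afv, the H3.3 genes H3f3a and H3f3b, and Npm2, which encodes the oocyte histone chaperone nucleoplasmin 2. All 10 passed the filter on low counts that left 19241 genes to be tested. RNA was measured in oocytes at the germinal vesicle (GV) stage, which are arrested before the first meiotic division, in 4 libraries of Zp3-Cre control oocytes and 4 of CNOT7&8 KO oocytes, each made from 100 oocytes. CNOT7&8 KO oocytes carried floxed alleles of both genes (Cnot7 fl/fl, Cnot8 fl/fl) together with Zp3-Cre, a transgene in which the promoter of zona pellucida 3 drives Cre in growing oocytes, so both groups carry Cre and the genes are deleted only once oocyte growth has begun. Females had a C57BL/6J background, were 4 weeks old and had received PMSG, and the oocytes were kept in medium with dibutyryl-cAMP until use. Each library is a sample of its own in the labels, which do not say whether pools came from separate animals, so the p-values measure only the spread between these libraries.

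CNOT7 and CNOT8 are alternative deadenylase subunits of the CCR4-NOT complex, which also holds CNOT6 or CNOT6L as a deadenylase of another type. The complex shortens the poly(A) tails of mRNAs and so affects their stability and translation. Core histones made for DNA replication come from mRNAs without a poly(A) tail, whereas the genes examined here produce polyadenylated mRNAs and can be expressed outside S phase. A growing oocyte does not replicate its DNA, yet it stores mRNAs and proteins for the remodeling of sperm chromatin and for the first cell cycles of the embryo. H1FOO is the linker histone of oocytes and early embryos, H3.3 replaces protamines on sperm DNA after fertilization, H2A.Z marks promoters and pericentric heterochromatin, and NPM2 organizes chromatin around the nucleolus of the oocyte.

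Control libraries held 14943671 to 44092144 counts and KO libraries 8639444 to 26784110, so that 3 counts, taken as the limit of detection, made between 0.068 and 0.347 CPM (counts scaled to the library total). This limit reflects counts only and takes no account of PCR copies, which are not independent molecules. Cnot8 fell from 168 ± 20 to 35.2 ± 1.4 CPM (SD, n = 4 per group; log2 fold change -2.25) and Cnot7 from 933 ± 77.3 to 719 ± 70.8 CPM (log2 fold change -0.38), as counted over the whole gene. By immunoblot, the authors reported both proteins to be depleted in KO oocytes. Control replicate 1 and KO replicate 4, the deepest libraries of their groups, deviated from their group means together (r = 0.372 across genes). This was the largest r of any control library with any KO library, and that of control replicate 1 with KO replicate 3 was -0.331. Deviations within a group cancel out, so these values are not independent. Control replicate 1 was the lowest control for 6 of the 10 mRNAs and KO replicate 4 the lowest KO library for 7, so each log2 fold change was also fitted without both. By that fit 8 of the 10 mRNAs were lower and 1 was higher, and H3f3a was the one whose call changed.

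Most of these mRNAs were modestly lower in CNOT7&8 KO oocytes, and 1 of them, H2afz, was higher. At an adjusted p of 0.05 (edgeR's quasi-likelihood test, Benjamini-Hochberg over all genes tested), 7 of the 10 were lower (H1foo, H1f0, H2afx, H2afy, H2afv, H3f3b and Npm2), where 24.1% of all genes tested were lower. H2afz was the 1 that was higher, where 31.2% of all genes were. H1fx and H3f3a did not pass. No change reached 2-fold: 0 of the 10 were differentially expressed genes (DEGs, adjusted p of at most 0.05 and at least 2-fold), where 6.56% of all genes were downregulated and 23.8% upregulated DEGs. edgeR's exact test and DESeq2 also gave 7 lower, 1 higher and 0 DEGs, and 9 of the 10 had an unadjusted p under 0.05 in the quasi-likelihood test. The values of the 4 KO and the 4 control libraries did not overlap for 5 of the mRNAs, where this held for 48.4% of all genes tested. Here a log2 fold change is KO minus control, and CPM values are scaled by TMM, a method that takes most genes as unchanged. These levels are relative to the other mRNAs of a library. In RNA from pooled cells, a lower level of an mRNA in each oocyte cannot be told apart from fewer of the oocytes holding it.

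**Figure D1:**
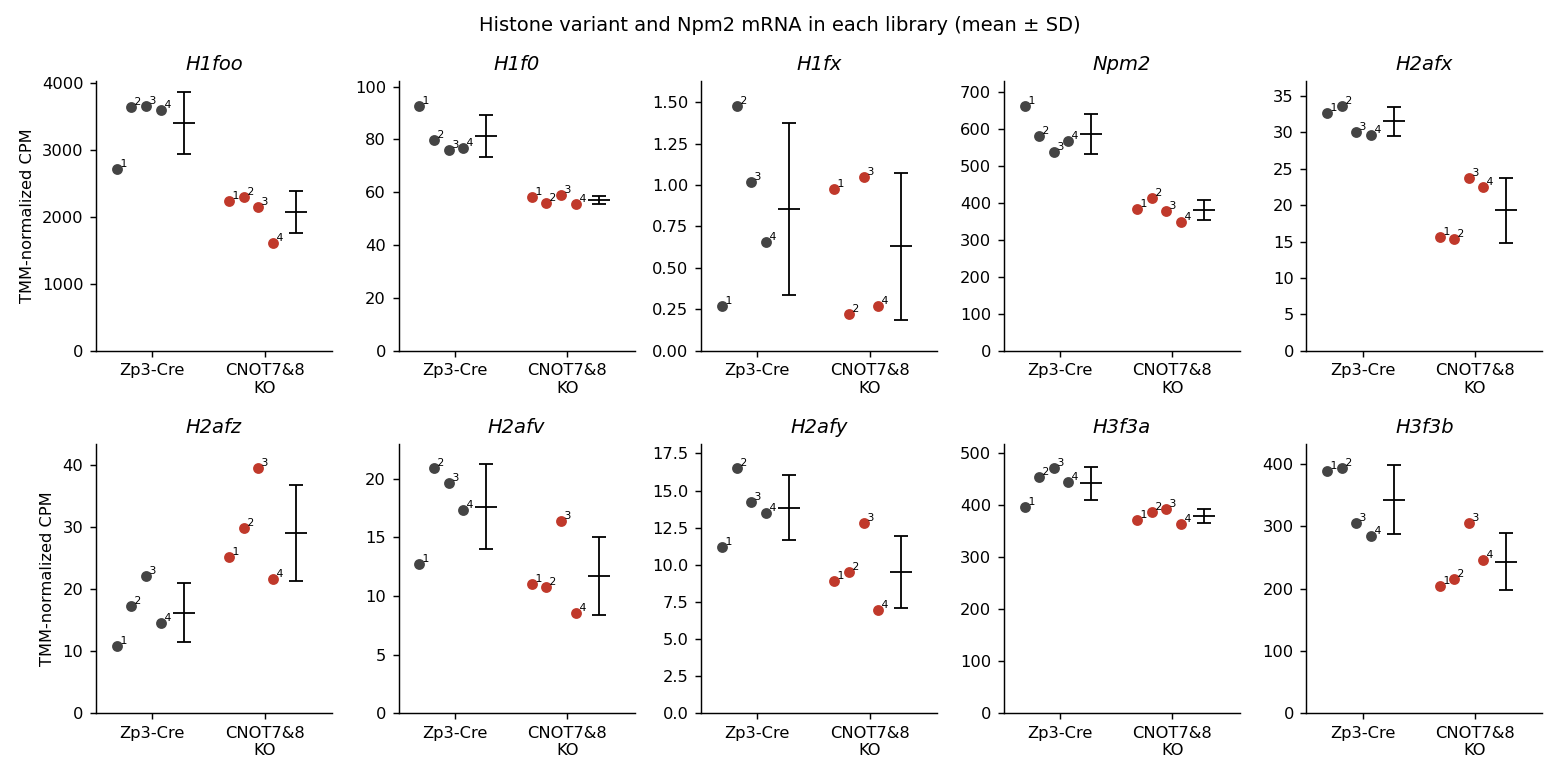
Level of each mRNA in every library, in TMM-normalized CPM on axes that start at 0. Grey points are the 4 Zp3-Cre and red points the 4 CNOT7&8 KO libraries, numbered by replicate, and the bars beside them give the mean ± SD. The groups are separate for H1foo, H1f0, Npm2, H2afx and H3f3a, and H2afz is the panel in which the KO mean (29 CPM) lies above the control mean (16.2 CPM).

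Among the linker histones, which bind the DNA that enters and leaves a nucleosome, H1foo was by far the most abundant. H1foo (ENSMUSG00000042279, chr6:115944938-115950236 of GRCm38, plus strand) had 2714, 3650, 3665 and 3600 CPM in control replicates 1 to 4 and 2240, 2303, 2149 and 1617 CPM in KO replicates 1 to 4. Every KO library lay below every control library, and the lowest libraries of the groups were control replicate 1 and KO replicate 4. The mean fell from 3408 ± 463 to 2078 ± 313 CPM (SD, n = 4 each), 61% of control (log2 fold change -0.71, SE, the standard error, 0.14, 95% interval -1.02 to -0.41, adjusted p = 0.000995 by edgeR's quasi-likelihood test). Without both of these libraries the log2 fold change was again -0.71 (adjusted p = 1.89e-06, same test). This single mRNA took between 0.177% and 0.346% of all counts of a library.

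H1f0 encodes H1.0, the linker histone known from differentiated and non-dividing cells. H1f0 (ENSMUSG00000096210, chr15:79028450-79030504, plus strand) had 92.8, 79.7, 75.8 and 76.8 CPM in the control and 58, 56.1, 58.9 and 55.5 CPM in the KO libraries. The KO libraries lay within a narrow range, below all controls, and here control replicate 1 was the highest control, not the lowest as for H1foo. The mean went from 81.3 ± 7.88 to 57.1 ± 1.6 CPM (SD, n = 4 each), 70.3% of control (log2 fold change -0.51, SE 0.11, adjusted p = 0.00174 by edgeR's quasi-likelihood test). H1fx (ENSMUSG00000044927, chr6:87980421-87981637, minus strand), which encodes H1.10, was near the limit of detection, with 10, 30, 15 and 9 counts in control and 9, 4, 17 and 8 in KO libraries. Its groups overlapped, with only KO replicate 2 outside the control range in CPM (0.22 beside a lowest control of 0.267), and a log2 fold change of -0.51 with a 95% interval from -1.88 to 0.85 (adjusted p = 0.507, edgeR's quasi-likelihood test) leaves neither a decrease nor an increase detectable at this depth. H1fx also overlaps the gene Gm47286 on its own strand, so reads there cannot be assigned with certainty.

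Npm2, whose protein binds histones in the oocyte, was lower too. Npm2 (ENSMUSG00000047911, chr14:70647302-70659244, minus strand) had 663, 580, 538 and 566 CPM in control and 383, 412, 377 and 348 CPM in KO libraries. All KO values were below all control values. The mean fell from 587 ± 53.6 to 380 ± 26 CPM (SD, n = 4 each), 64.7% of control (log2 fold change -0.63, SE 0.10, adjusted p = 0.000293 by edgeR's quasi-likelihood test), the smallest adjusted p of the 10. For H1foo, H1f0, H2afx, H3f3a and Npm2, whose groups were separate, the exact permutation test gave a two-sided p = 0.0286, the smallest that 4 libraries against 4 allow. Npm2 overlaps the gene Xpo7 on the same strand, and how such reads were counted is not given in the sources used here.

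The 3′UTR of H1foo, 336 bases long, holds 1 copy of the cytoplasmic polyadenylation element (CPE), UUUUAU in RNA and TTTTAT in DNA, to which CPEB binds to regulate the poly(A) tail and translation of maternal mRNAs. The copy lies 39 bases before the polyadenylation signal AATAAA. H1f0 has no CPE but 1 Pumilio element (TGTAAATA), which PUM proteins bind. Both are shown because H1foo is the most abundant of these mRNAs and H1f0 the only one with a Pumilio element, each in 30 bases of the transcribed strand with the element in capitals.
H1foo CPE, chr6:115950157-115950186, plus strand: cgattctgaagcTTTTATtgtctaataagc
H1f0 Pumilio element, chr15:79029335-79029364, plus strand: cctcctgttttcTGTAAATAcatttcctca

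H2afx had the lowest log2 fold change of the H2A variants, by estimate. Its protein, H2AX, is the variant whose C-terminal tail is phosphorylated around DNA double-strand breaks. H2afx (ENSMUSG00000049932, chr9:44334694-44336077, plus strand) had 32.7, 33.7, 30 and 29.7 CPM in control and 15.6, 15.3, 23.7 and 22.5 CPM in KO libraries. The controls lay close together, whereas KO replicates 1 and 2 were clearly lower than KO replicates 3 and 4, and all 4 were below every control. The mean fell from 31.5 ± 1.99 to 19.3 ± 4.47 CPM (SD, n = 4 each), 61.2% of control (log2 fold change -0.70, SE 0.17, adjusted p = 0.00337 by edgeR's quasi-likelihood test). H2afx has a single annotated transcript, with 1 CPE in its 3′UTR of 884 bases that runs into the polyadenylation signal variant ATTAAA, so that the 2 elements share bases. It is shown for that overlap, with the CPE in capitals.
H2afx CPE, chr9:44336027-44336056, plus strand: ttaatgggctaaTTTTATtaaaggatcgtt

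H2afy encodes macroH2A1, the H2A variant with a large globular domain that is enriched on the inactive X chromosome. H2afy (ENSMUSG00000015937, chr13:56073619-56136361, minus strand) had 11.2, 16.5, 14.2 and 13.5 CPM in control and 8.9, 9.5, 12.8 and 6.98 CPM in KO libraries. KO replicate 3 was above control replicate 1, so the groups overlapped (exact permutation test, two-sided p = 0.0571). The mean went from 13.9 ± 2.2 to 9.54 ± 2.4 CPM (SD, n = 4 each), 68.8% of control (log2 fold change -0.54, SE 0.20, adjusted p = 0.0372 by edgeR's quasi-likelihood test). The decrease of H2afy was the least firm of the 7 together with that of H2afv: it did not pass without control replicate 2, 3 or 4 or without KO replicate 1, 2 or 4, each left out alone, with adjusted p-values from 0.0636 to 0.124 in the same test. It passed without control replicate 1 and KO replicate 4 together, the lowest libraries of their groups (-0.50, adjusted p = 0.0263, same test).

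H2A.Z, the variant found at the first nucleosome of active genes and in pericentric heterochromatin, comes from 2 genes. H2afz encodes H2A.Z.1 and H2afv H2A.Z.2, proteins that differ at only a few residues, although their annotated coding sequences of 387 bases were 79.1% identical and differed at 81 positions. The 2 mRNAs moved in opposite directions. H2afz (ENSMUSG00000037894, chr3:137864487-137866922, plus strand) had 10.9, 17.3, 22.2 and 14.5 CPM in control and 25.2, 29.8, 39.5 and 21.7 CPM in KO libraries. KO replicate 4 was just below control replicate 3 and the other 3 KO libraries were above all controls (exact permutation test, two-sided p = 0.0571). The mean rose from 16.2 ± 4.8 to 29 ± 7.74 CPM (SD, n = 4 each), 179% of control (log2 fold change 0.85, SE 0.23, 95% interval 0.34 to 1.35, adjusted p = 0.00851 by edgeR's quasi-likelihood test).

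H2afv (ENSMUSG00000041126, chr11:6427229-6444443, minus strand) had 12.7, 20.9, 19.6 and 17.3 CPM in control and 11, 10.8, 16.4 and 8.58 CPM in KO libraries. Only KO replicate 3 reached into the control range, above control replicate 1. The mean fell from 17.6 ± 3.6 to 11.7 ± 3.32 CPM (SD, n = 4 each), 66.3% of control (log2 fold change -0.59, SE 0.22, adjusted p = 0.0358 by edgeR's quasi-likelihood test). As for H2afy, the call was lost without control replicate 2, 3 or 4 or KO replicate 1, 2 or 4, with adjusted p-values from 0.0631 to 0.118 in the same test. Without control replicate 1 and KO replicate 4 together it was kept (-0.59, adjusted p = 0.0119, same test).

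The ratio of H2afz to H2afv within a library does not depend on how library sizes are scaled, and it separated the groups widely. There were 0.855, 0.828, 1.14 and 0.836 H2afz reads for each H2afv read in control replicates 1 to 4, and 2.29, 2.75, 2.41 and 2.52 in KO replicates 1 to 4. Control oocytes thus had similar counts of both, and every KO library had more than 2 H2afz reads for each H2afv read. The log2 ratio went from -0.14 ± 0.22 to 1.31 ± 0.11 (SD, n = 4 each), a difference of 1.46, or 2.75-fold. The exact permutation test gave a two-sided p = 0.0286, the smallest that 4 libraries against 4 allow. Adjusted by Benjamini-Hochberg over the 4 ratios examined, this p was 0.114, and in the other ratios the groups overlapped. H2afz made up 47.5% ± 3.78 of the summed reads of both genes in control and 71.3% ± 1.58 in KO libraries (SD, n = 4 each). The sum itself was 23.5, 38.1, 41.8 and 31.8 CPM in control and 36.2, 40.6, 55.9 and 30.2 CPM in KO libraries, with overlapping groups (log2 difference 0.26, exact permutation test, two-sided p = 0.4, and 0.4 adjusted over the 2 sums).

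**Figure D2:**
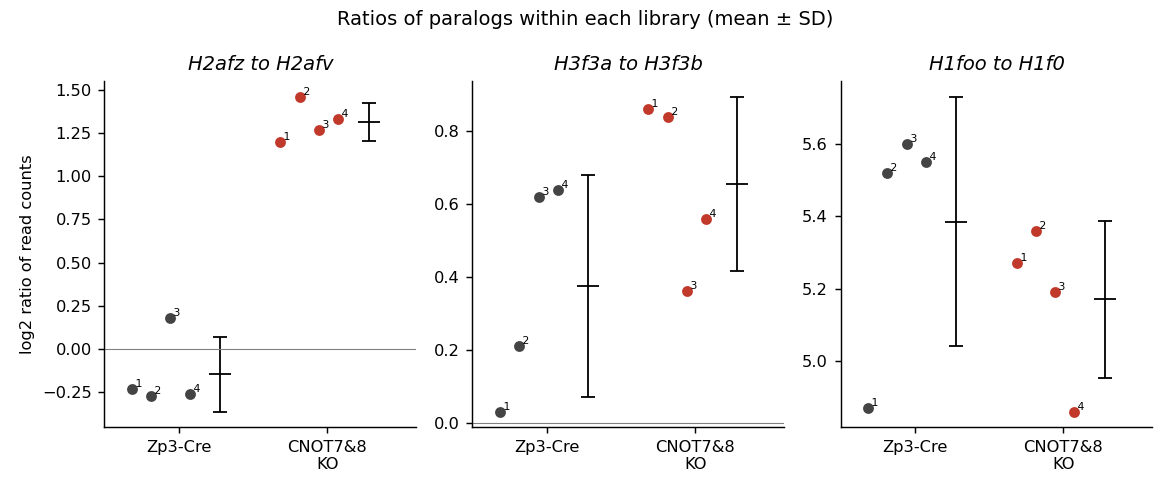
Log2 ratio of read counts of paired genes within each library, with 0.5 added to each count; grey points are Zp3-Cre and red points CNOT7&8 KO libraries, numbered by replicate, with mean ± SD beside them, and each panel has its own axis range. The H2afz to H2afv ratios of the groups are far apart (means -0.14 and 1.31), whereas the ratios of H3f3a to H3f3b and of H1foo to H1f0 overlap.

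Markers of granulosa and cumulus cells, the somatic cells that surround an oocyte, also differed between the groups, and values bearing on H2afz are given here. Of 12 such markers 11 were tested, with 6 higher (Nr5a2, Kitl, Inha, Inhba, Hsd3b1 and Fshr) and 1 lower (Cyp19a1) in KO. Their summed level was 126 to 175 CPM in control and 214 to 269 CPM in KO libraries, while the sum of 10 oocyte markers, of which 5 were lower and 1 (Nobox) higher, was 20135 to 23387 CPM and 16632 to 19276 CPM. Foxl2, a defining granulosa gene, had 0 or 1 count in every library, and Amh stayed at or below 1.7 CPM. Nr5a2 (48.3 to 69.3 CPM in control, 114 to 132 in KO), Kitl (11.9 to 20.7 and 30.3 to 52.2), Hsd3b1 and Fshr were higher in every KO than in every control library. Inha was at 38.4, 34.1, 26.5 and 4.77 CPM in KO replicates 1 to 4 and at 4.44 to 10 CPM in control. KO replicate 4 thus had Inha within the control range, but its summed marker level of 219 CPM was above that of every control library. Its H2afz level of 21.7 CPM was the lowest of the KO libraries, and its H2afz to H2afv ratio of 2.52 lay inside the range of the others. Without KO replicate 4 the log2 fold change of H2afz was 0.98 (adjusted p = 0.00526, edgeR's quasi-likelihood test), and without control replicate 1 as well it was 0.81 (adjusted p = 0.00208, same test). The part of such cells in the H2afz result and in the others was not tested.

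The 3′UTRs of the H2A.Z genes differ in the elements that maternal mRNAs are known for, and are shown because these mRNAs moved apart. The annotated 3′UTR of H2afv has 1142 bases and 4 CPEs, the last of them 26 bases before its polyadenylation signal. The 3′UTR of H2afz has 475 bases, with no CPE and no Pumilio element, and 1 copy of ATTTA, the core of AU-rich elements. Each line gives 30 bases of the transcribed strand, 5′ to 3′, with the CPE or ATTTA in capitals.
H2afv CPE 1, chr11:6428161-6428190, minus strand: ttctcccttgtgTTTTATacaaaagtagaa
H2afv CPE 2, chr11:6427356-6427385, minus strand: cgatagccaaaaTTTTATttttcttcaata
H2afv CPE 3, chr11:6427317-6427346, minus strand: gagaaattaatgTTTTATaatatcacagta
H2afv CPE 4, chr11:6427272-6427301, minus strand: tttgaagaaataTTTTATtatggaagttct
H2afz ATTTA, chr3:137866622-137866651, plus strand: agtcttaaccatATTTAagtgttactgtgg

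H3.3 is likewise encoded by 2 genes, H3f3a and H3f3b, whose products have the same amino acid sequence. Their coding sequences of 411 bases were 76.9% identical. H3f3a (ENSMUSG00000060743, chr1:180800832-180813943, minus strand) had 396, 454, 470 and 444 CPM in control and 371, 387, 391 and 364 CPM in KO libraries. Every KO library was below every control, but by a small margin, since KO replicate 3 and control replicate 1 nearly met. The mean went from 441 ± 32 to 378 ± 12.7 CPM (SD, n = 4 each), 85.8% of control, and did not pass (log2 fold change -0.22, SE 0.10, 95% interval -0.43 to -0.01, adjusted p = 0.0655 by edgeR's quasi-likelihood test). Without control replicate 1 it did, at -0.27 (adjusted p = 0.0103, same test), as it did without control replicate 1 and KO replicate 4 together, at -0.25 (adjusted p = 0.009, same test), whereas with library sizes left unscaled its sign was positive (0.058, adjusted p = 0.645, same test).

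H3f3b (ENSMUSG00000016559, chr11:116021912-116027962, minus strand) had 388, 393, 306 and 284 CPM in control and 204, 216, 306 and 246 CPM in KO libraries. KO replicate 3 stood above the other KO libraries and above control replicate 4, so the groups overlapped (exact permutation test, two-sided p = 0.0857). The mean fell from 343 ± 55.8 to 243 ± 45.2 CPM (SD, n = 4 each), 71% of control (log2 fold change -0.50, SE 0.15, adjusted p = 0.0145 by edgeR's quasi-likelihood test). The ratio of H3f3a to H3f3b did not separate the groups: H3f3a held 56.4% ± 5.19 of the H3.3 reads in control and 61.1% ± 3.98 in KO libraries (SD, n = 4 each), a log2 ratio difference of 0.28 (exact permutation test, two-sided p = 0.229, or 0.457 adjusted over the 4 ratios). Summed over both genes, H3.3 mRNA was at 784, 847, 776 and 728 CPM in control and 575, 603, 697 and 611 CPM in KO libraries. All KO sums were below all control sums, a log2 difference of -0.34 (exact permutation test, two-sided p = 0.0286, or 0.0571 adjusted over the 2 sums), which shrank to -0.05 with library sizes left unscaled.

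Near-identical copies in the genome could take reads from these genes. Of the 10, H3f3a had 22 annotated copies with at least 95% identity over 150 bases or more, H3f3b and H2afz had 3 each and H2afx had 1. The copies in the count table never held more than 0.78% of the reads of their gene, and adding their counts moved no log2 fold change across the threshold. Reads that fit several copies equally well may have been dropped or shared by the authors' counting, which these counts do not show.

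The remaining ratios compared the oocyte linker histone with the somatic ones. The log2 ratio of H1foo to H1f0 was 5.38 ± 0.34 in control and 5.17 ± 0.22 in KO libraries (SD, n = 4 each). The difference of -0.21 lay within the spread of the replicates (exact permutation test, two-sided p = 0.343, or 0.457 adjusted over the 4 ratios). It leaned on control replicate 1, at 4.87 beside 5.52 to 5.60 in the other controls and 4.86 to 5.36 in KO libraries. Without control replicate 1 the groups were separate and the difference was -0.38 (adjusted p = 0.114, exact permutation test). Leaving out KO replicate 4 alone made it -0.11 (adjusted p = 0.657, same test). The log2 ratio of H1foo to H1fx differed by -0.23 (two-sided exact permutation p = 0.714, the same after adjustment), with the few H1fx counts setting its spread.

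Levels of different genes were compared per length of the longest annotated transcript. In control oocytes H1foo stood at 2859 ± 389 CPM per kb (SD, n = 4), followed by Npm2 at 589 ± 53.7. The H3.3 genes came next, H3f3a at 155 ± 11.3 and H3f3b at 136 ± 22.2 CPM per kb, which did not differ beyond their spread. Below them were H1f0 at 39.5 ± 3.83, H2afx at 22.8 ± 1.44, H2afz at 15.2 ± 4.49 and H2afv at 10.8 ± 2.2 CPM per kb, with H2afz and H2afv overlapping. H2afy, at 3.45 ± 0.549, and H1fx, at 0.703 ± 0.425 CPM per kb, were the lowest. In CNOT7&8 KO oocytes the order was the same except that H2afz, at 27.2 ± 7.24, stood above H2afx, at 13.9 ± 3.23, and came to about the level of H1f0, at 27.8 ± 0.778 CPM per kb (SD, n = 4 each). The level of H2afz depended on the length used: over all annotated exons summed, H2afz in control was at 9.13 CPM per kb, below H2afv at 10.8. By that length H2afz in KO was at 16.4 CPM per kb, above H2afx at 13.9 but below H1f0 at 27.8.

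The size of these changes is set beside those of genes of like abundance, since in this comparison the median change fell as abundance rose. The median log2 fold change was -0.53 over the 10 genes and 0.12 over all genes tested. Among the 82 genes with a mean of 1000 CPM or more, which include H1foo, the median was -0.45 and 64.6% were lower. Among the 2330 genes from 100 to under 1000 CPM, the range of H3f3a, H3f3b and Npm2, the median was -0.37 and 54.9% were lower. Among the 6314 genes from 10 to under 100 CPM, which include H1f0 and the 4 H2A variants, the median was -0.17, with 36.8% lower and 25.8% higher. H1fx lay among the 5483 genes under 1 CPM, where the median was 1.05. Beside the median of their own abundance range, H1foo (-0.71), Npm2 (-0.63) and H3f3b (-0.50) were lower by estimate. So were H2afx (-0.70), H2afv (-0.59), H2afy (-0.54), H1f0 (-0.51) and H1fx (-0.51), of which H1fx was not called. H3f3a (-0.22) was less negative by estimate, and H2afz (0.85) went the other way. The 95% intervals of H1foo (-1.02 to -0.41), H3f3b (-0.82 to -0.17) and H3f3a (-0.43 to -0.01) included the median of their range. So did those of H2afv (-1.07 to -0.12) and H2afy (-0.98 to -0.10). The intervals of Npm2 (-0.85 to -0.40), H2afx (-1.06 to -0.34) and H1f0 (-0.74 to -0.27) lay below it, as did the wide one of H1fx.

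**Figure D3:**
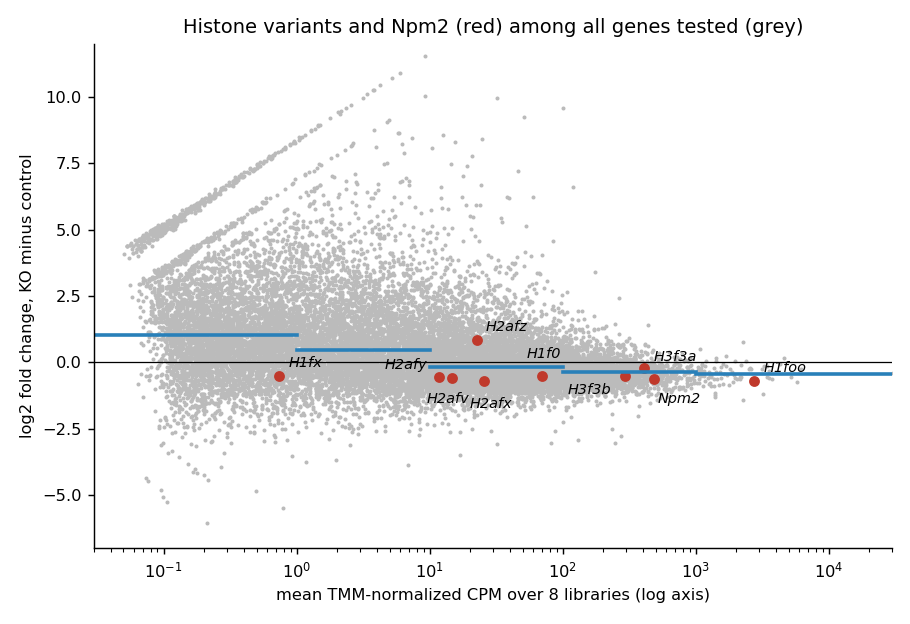
Log2 fold change (KO minus control) of each gene tested against its mean TMM-normalized CPM over 8 libraries on a log axis. Grey points are the 19241 genes tested, red points the 10 genes described here, and blue lines the median in each range of abundance, which falls from 1.05 under 1 CPM to -0.45 at 1000 CPM or more.

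How library sizes were scaled moved all log2 fold changes together. TMM factors were 0.849 to 0.943 for control and 1.07 to 1.14 for KO libraries. With library sizes left unscaled the median of all genes rose by 0.29 and that of the 10 genes was -0.25, and with TMM computed on genes of at least 10 CPM the median of all rose by 0.26 and that of the 10 was -0.29. H1foo (-0.44 and -0.48) and Npm2 (-0.34 and -0.37) were lower under both, H2afz (1.12 and 1.08) was higher and then passed the 2-fold threshold, and the log2 fold change of H3f3a (0.058 and 0.021) turned positive. The number of mRNAs lower in KO was 2 without scaling (H1foo and Npm2) and 4 with TMM on abundant genes (H1f0 and H2afx in addition).

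**Figure D4:**
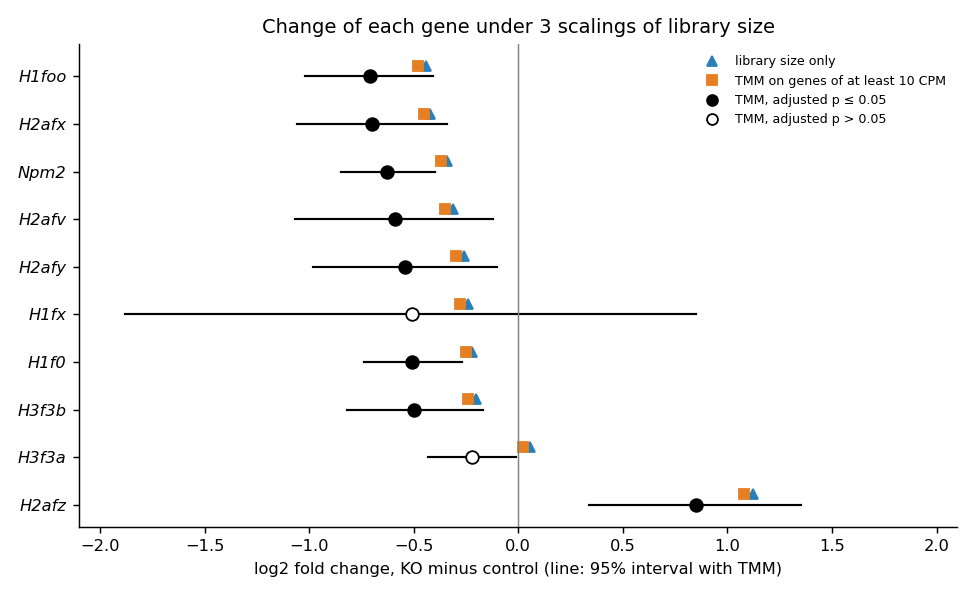
Log2 fold change of each mRNA, KO minus control. Circles with lines give the TMM-scaled value and its 95% interval (filled: adjusted p of at most 0.05, edgeR's quasi-likelihood test), and triangles and squares the values without scaling and with TMM on genes of at least 10 CPM. H2afz lies to the right of 0 under all 3 scalings, H3f3a crosses 0, and the other 8 stay to its left.

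Proteins that place these histones in chromatin, or act on them, were examined as 5 lists with 45 genes tested, of which 17 were lower and 3 higher in KO (edgeR's quasi-likelihood test, adjusted p of 0.05), beside 24.1% and 31.2% of all genes. Most of the 45 had between 10 and 1000 CPM, where decreases were more common. Of all genes from 10 to under 100 CPM 36.8% were lower and 25.8% higher, and from 100 to under 1000 CPM 54.9% and 8.54%. The balance of the 45 genes depended on the scaling, with 10 lower and 8 higher when library sizes were left unscaled and 12 lower and 8 higher with TMM on genes of at least 10 CPM. The counts and values that follow are those with TMM. Among H3.3 chaperones 2 of 10 were lower, with a list median of -0.25. Cabin1, a subunit of the HIRA complex that deposits H3.3, fell from 130 ± 19.3 to 48 ± 7.22 CPM (SD, n = 4 each; log2 fold change -1.44), and Dek from 139 ± 19.6 to 97.9 ± 12 CPM (-0.51). Hira itself, at 6.29 ± 1.48 and 7.3 ± 0.864 CPM, did not pass, nor did Daxx and Atrx, which form the other H3.3 deposition complex.

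In the machinery of H2A.Z exchange, 5 of 12 genes were lower, with a list median of -0.44. Kat5, the acetyltransferase of the TIP60 complex, fell from 52.1 ± 4.98 to 24.2 ± 3.06 CPM (SD, n = 4 each; log2 fold change -1.11). Its partners Dmap1 (-0.68) and Yeats4 (-0.62) were also lower with separate groups, and Ruvbl2 (-1.30) and Vps72 (-0.79) were lower with overlapping groups. Anp32e, which removes H2A.Z from chromatin, had 13.4 ± 2.7 and 12.3 ± 1.18 CPM and did not pass.

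Of the chaperones of H2A-H2B and linker histones, 6 of 10 were lower and 1 was higher, with a list median of -0.43. Both subunits of FACT, which moves H2A-H2B dimers during transcription, were lower, Ssrp1 by a log2 fold change of -1.12 (from 116 ± 19.2 to 53.2 ± 4.89 CPM) and Supt16 of -0.69 (from 258 ± 46.7 to 160 ± 14.4 CPM; SD, n = 4 each). Nucleolin, Ncl (-0.70), and Anp32b (-0.59) were lower as well, as were Npm1 (-0.47) and Nap1l4 (-0.39). Set was the 1 that rose, from 36.2 ± 5.57 to 59.8 ± 3.19 CPM (log2 fold change 0.72).

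Among 8 kinases and readers of phosphorylated H2AX, 4 were lower and 1 higher, with a list median of -0.18. Trp53bp1, which binds chromatin at double-strand breaks, fell from 746 ± 26.2 to 283 ± 9.97 CPM (SD, n = 4 each; log2 fold change -1.40). The kinases Atr (-0.65) and Baz1b (-0.86), the latter phosphorylating H2AX at its C-terminal tyrosine, and the ubiquitin ligase Rnf168 (-0.33) were lower with separate groups. Atm, the main kinase of H2AX at breaks, was higher (0.63) with overlapping groups. Mdc1, the reader of phosphorylated H2AX, was at 46.9 ± 10.4 and 46.8 ± 9.31 CPM (log2 fold change -0.01).

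Of 11 other variant histones, 10 were in the table and 5 were tested. Hist1h1t, the testis linker histone, rose from 2.8 ± 0.795 to 7.96 ± 2.71 CPM (SD, n = 4 each; log2 fold change 1.52) and was the 1 that passed, as a DEG. Cenpa, the centromeric H3 variant, had 43 ± 3.63 and 42.3 ± 2.76 CPM, and H2afy2, H2afj and Hist1h2ba did not pass either.

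**Figure D5:**
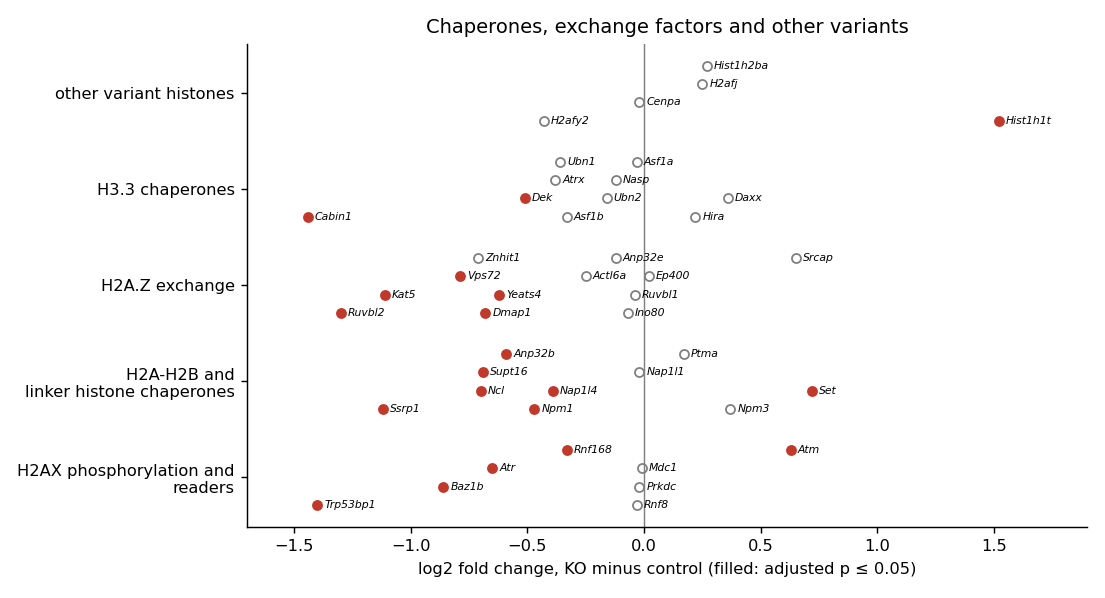
Log2 fold change (KO minus control) of the 45 tested genes of the 5 lists, one row of points for each list. Filled points passed an adjusted p of 0.05 in edgeR's quasi-likelihood test; 17 of them lie left of 0 and 3 (Hist1h1t, Set and Atm) to its right.

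Over all 10 genes, the elements were counted beside those of all genes tested. TTTTAT was found in 6 of their longest annotated 3′UTRs (1 copy in H1foo, H2afx and H2afy, 3 in H3f3a, 4 in H2afv and H3f3b) and in those of 56.2% of the 15125 tested genes with an annotated 3′UTR. It was present in 52.2% of the genes lower in KO and in 61.7% of those higher. The Pumilio element TGTAAATA occurs in 1 of the 10 and in 12% of tested genes, and ATTTA in 7 of the 10 and in 69.8%. Elements were searched on the transcribed strand only, and ATTTA can overlap TTTTAT in TTTTATTTA. The 4 genes without a CPE were H1f0, H1fx, H2afz and Npm2, of which H1f0 and Npm2 were lower, H2afz higher and H1fx not called. The median 3′UTR length was 746 bases for the 10 genes and 1119 bases for the genes tested, so the chance of holding a short element differs.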

How the data were processed

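RNA-seq libraries of GV oocytes (4 Zp3-Cre, 4 CNOT7&8 KO) were grouped by their labels. The authors deposited the counts of reads on each gene, neither normalized nor pooled, after mapping to GRCm38 with STAR 2.6.1d (the submitters' processing notes also name edgeR 3.11) in the nf-core/rnaseq pipeline. The kit is named differently in the labels (stranded total RNA with ribosomal RNA removal) and in the methods (stranded mRNA kit). The counting tool, annotation and strand setting are not given in the sources used here, so values of genes that overlap, lie antisense or have near-identical copies are uncertain.

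The tools were edgeR 4.0.16, DESeq2 1.42.0 and limma 3.58.1 under R 4.3.3. Genes reaching 0.2 CPM in 2 libraries were tested with TMM scaling and edgeR's quasi-likelihood test, Benjamini-Hochberg adjusted over 19241 genes, in place of the authors' exact test, which was an alternative. Standard errors were derived from the F statistic. Ratios (0.5 added to counts), sums and single values were compared by exact permutation tests over 70 assignments, two-sided. Libraries of the same group differed by more than sampling noise in every pair (chi-square per degree of freedom of at least 8.48). Coordinates, lengths and 3′UTRs came from GENCODE vM21, which held 98.2% of the gene identifiers, and copies were found with blastn 2.17.0. Figures used Python 3.11.15 and matplotlib 3.10.9. Scripts were tested on simulated data.

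The named genes were the 10, the targeted genes, and in each list up to 4 genes a direction with the largest change among those past the threshold with separate groups. Other list genes were named after their values were seen. The 10 genes, the lists and the tests were chosen with earlier results of these data known. Alternatives were other tests, scalings and filters, the replicate number as a block, and leaving out libraries.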

Additional observations from a re-analysis of the deposited data

Results flagged for a closer look

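In 3 of 32 groups of 4 libraries, the highest or lowest library stood far from the rest (Dixon's test for 4 values at 95%), which chance alone does in about 1 group in 20, here 1.6 groups. H1foo had 2714 CPM in control replicate 1 and 3600 to 3665 CPM in the other controls. The log2 ratio of H1foo to H1f0 was 4.87 in control replicate 1 and 5.52 to 5.60 in the other controls, and KO replicate 4 was likewise the lowest of its group at 4.86. The log2 ratio of H2afz to H2afv was 0.18 in control replicate 3 and -0.27 to -0.23 in the other controls, and it stayed below that of every KO library.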

How the results depend on the processing

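Of 354 alternative values, 312 kept their direction and side of the threshold, or their count within 1.5 times. Among these are values of H1fx and of the ratios and sums, which passed in no setting. A count of 5 genes lower, beside 7 in the main fit, was also taken as kept. H1foo, Npm2 and H2afz kept their direction and side of the threshold under all 19 alternatives (adjusted p of at most 0.0246, 0.0055 and 0.0346). With library sizes left unscaled, 2 of the 10 genes were lower and 1 was a DEG, and 10 related genes were lower and 8 higher; H1f0 (-0.22, adjusted p = 0.0624) and H2afx (-0.42, 0.057) no longer passed in edgeR's quasi-likelihood test. With TMM on genes of at least 10 CPM, 4 were lower, 1 was a DEG and 8 related genes were higher. H3f3a reversed under both (0.058 and 0.021), and H3f3b no longer passed (-0.20 and -0.24). The upper quartile scaling gave 7, the filter of 1 CPM in 4 libraries 6, and the fit without control replicate 1 and KO replicate 4 together 5 related genes higher, where the TMM fit gave 3. H2afy and H2afv fell short of the threshold under 10 of 19 alternatives each (adjusted p up to 0.335 and 0.288). The causes were not tested.

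Leaving out libraries, 5 to 8 of the 10 genes were lower, 1 was higher, and 0 to 1 were DEGs (H2afz, 1.04 without control replicate 3). Related genes numbered 15 to 20 lower and 2 to 5 higher. The log2 ratio difference of H2afz to H2afv stayed between 1.41 and 1.57, and that of H1foo to H1fx ran from -0.65 to 0.14, reversed to 0.14, 0.05 and 0.09 without control replicate 1, KO replicate 1 and KO replicate 3. H1fx could not be tested with the filter of 1 CPM in 4 libraries.

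The replicate numbers did not pair the samples (same-numbered r of -0.0719, -0.0418, 0.11 and -0.121 across genes). With the replicate block, 7 of the 10 genes were lower, 1 higher and 0 DEGs, and no call changed. The sign-flip test of the block gave p = 0.125 for the H2afz to H2afv difference of 1.46, the smallest it can give (exact test, n = 4 pairs). Adding the counts of near-identical copies and using the longest coding transcript for length were chosen after seeing the data: the first changed no call, and the second left the order of the 10 genes in control unchanged, with H2afy at 6.78 in place of 3.45 CPM per kb. Depth limits H1fx most, with as few as 4 counts in a library.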
